A study of Mus musculus with 28 samples.

Results

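The genes described here are 9 members of the inflammasome and pyroptosis pathway, out of 55487 gene IDs in each library: the sensors Nlrp3 and Aim2, the adaptor Pycard (ASC), the caspases Casp1, Casp4 (the mouse gene of caspase-11) and Casp8, the pore-forming protein gene Gsdmd, and the cytokine genes Il1b and Il18. They were chosen by name from the known pathway, and each was matched to 1 Ensembl gene ID. RNA had been sequenced from 28 libraries in 7 groups of 4, all of wild-type mouse macrophages differentiated in culture from bone marrow. One group, M0, was kept without polarizing cytokine for 48 h. The other 6 groups received IFN-γ or IL-10 at 50 ng/mL for the same 48 h, and for each cytokine comprised 3 sorted populations: Treg-phagocytic macrophages had engulfed apoptotic regulatory T cells, Tconv-phagocytic ones had engulfed apoptotic conventional CD4 T cells, and non-phagocytic ones neither. The T cells had been killed with ATP/NAD+ and stained with an anti-CD4 antibody carrying BV421 or Ax647, 2 libraries of each phagocytic group per dye. The series asks how uptake of each kind of apoptotic T cell changes macrophage transcripts under each cytokine.

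The labels of M0 name neither T cells nor an uptake status, so in a comparison with M0 the cytokine cannot be told apart from co-culture and sorting. They do not say whether the 4 libraries of a group came from separate cultures or animals, and the p-values then measure only the spread between these libraries. The dye given in the titles and that given in the library names disagree for all 8 Treg-phagocytic libraries, and the dye and number used below are those of the titles. Levels are given as scaled TPM, which is the deposited TPM (transcript abundance per library, corrected for length and set to a fixed total) divided by a scaling factor per library. Because TPM is corrected for transcript length, levels can be compared between genes.

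An inflammasome is a protein platform that a sensor builds when it detects danger in the cytosol. NLRP3 responds to many kinds of cell stress and AIM2 binds double-stranded DNA in the cytosol. Both recruit ASC, which gathers and activates caspase-1. Caspase-1 cuts the precursors of the cytokines IL-1β and IL-18, and cuts gasdermin D, whose freed end makes pores in the plasma membrane and starts the lytic death called pyroptosis. Caspase-11 binds bacterial lipopolysaccharide in the cytosol and also cuts gasdermin D. Caspase-8 is the initiator of death-receptor apoptosis and can act on several of the same substrates. Nearly all of this control acts on proteins, and the values below are levels of messenger RNA alone.

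The promoter windows of 3 members are shown because their transcripts had the widest ranges over the 7 groups: Aim2, Nlrp3 and Il1b. Each runs 5′ to 3′ from 250 bases before to 50 bases after a transcription start of RefSeq on GRCm38.p6, in lower case, with capitals marking the core GAGGAA of PU.1, the lineage factor of macrophages, on either strand.
Aim2, chr1:173420354-173420653, plus strand: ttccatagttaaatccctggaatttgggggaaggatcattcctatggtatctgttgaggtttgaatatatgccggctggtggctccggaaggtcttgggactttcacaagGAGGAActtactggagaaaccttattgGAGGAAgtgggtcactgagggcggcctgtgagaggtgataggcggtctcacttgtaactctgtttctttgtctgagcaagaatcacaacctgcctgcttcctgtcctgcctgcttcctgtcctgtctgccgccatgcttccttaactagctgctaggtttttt
Nlrp3, chr11:59542436-59542735, plus strand: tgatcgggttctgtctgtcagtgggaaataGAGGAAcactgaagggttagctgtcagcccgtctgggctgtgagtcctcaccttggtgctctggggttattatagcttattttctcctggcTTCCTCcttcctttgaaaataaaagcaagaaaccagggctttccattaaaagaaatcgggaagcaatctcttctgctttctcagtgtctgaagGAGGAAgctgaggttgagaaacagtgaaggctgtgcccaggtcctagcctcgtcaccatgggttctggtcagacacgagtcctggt
Il1b, chr2:129371090-129371389, minus strand: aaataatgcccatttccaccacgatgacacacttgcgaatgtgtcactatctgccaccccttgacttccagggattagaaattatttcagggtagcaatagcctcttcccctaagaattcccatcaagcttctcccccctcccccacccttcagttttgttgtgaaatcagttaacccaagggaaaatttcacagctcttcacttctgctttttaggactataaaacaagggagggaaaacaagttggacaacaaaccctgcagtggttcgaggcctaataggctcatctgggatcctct
The PU.1 core occurred 2 times in the Aim2 window, at -140 and -113 from the start, and 3 times in this Nlrp3 window, at -220, -129 and -36. The other Nlrp3 window in RefSeq and the Il1b window had 0 matches, and 28.3% of 32817 promoter windows of the same length held at least 1. Pycard and Casp1 had 1 match each. The interferon-gamma activated site TTCNNNGAA (8.29% of windows), its STAT3-type subset TTCCNGGAA (1.15%), the interferon-stimulated response core GAAANNGAAA (3.43%) and a kappaB core with 1 free base (0.411%) had 0 matches on either strand in the windows of the 8 members with an entry. Gsdmd had no entry. A match is a run of letters and not a bound site. Only this 1 narrow form of the kappaB core was searched, so its 0 matches do not show that other kappaB forms are absent. Both Casp4 windows, for example, hold a run that differs from the searched form in 1 letter.

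By GENCODE vM21 on GRCm38, the members lie on 6 chromosomes, each as a protein-coding gene: Nlrp3 at chr11:59541568-59566956, Aim2 at chr1:173350879-173466040, Casp8 at chr1:58795374-58847503, Pycard at chr7:127989708-127993867, Casp1 at chr9:5298517-5307265, Casp4 at chr9:5308828-5336783, Il18 at chr9:50554827-50581840, Gsdmd at chr15:75862327-75867408 and Il1b at chr2:129364570-129371139. Casp1 and Casp4 are neighbours on the plus strand, and Pycard and Il1b are on the minus strand. A further gene is annotated over 5 members: Aim2, Casp8, Il18, Il1b and Pycard. The overlapping genes were low, with the highest value in any library being 2.18 scaled TPM for Bco2 beside Il18 and 0.0906 for the antisense transcript Il1bos beside Il1b.

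All 9 members were tested among 13631 genes. The 12 IFN-γ libraries were the shallowest, at 11.1% to 23.9% of the depth of the deepest library, against 49.2% to 92.1% for IL-10 and 68.9% to 100% for M0. All 9 macrophage markers examined (among them Adgre1, Csf1r and Cd68) were detected in every library, with summed levels of 15400 to 24600 scaled TPM. The 15 T cell markers summed to 642 to 1100 scaled TPM in the IFN-γ groups, 163 to 311 in the IL-10 groups and 194 to 281 in M0, and the 4 Treg markers to 30.8 to 55.3, 4.71 to 13.1 and 1.98 to 6.2. The sum of the 6 stromal markers went the other way. It was 1.46 to 5.65 scaled TPM in the IFN-γ groups, 49.8 to 60.2 in M0 and 12.2 to 73 in the IL-10 groups. In M0 most of it was Col1a1 and Col1a2, with means of 24.8 and 24.9. Dcn did not follow the sum, at 0.743 in M0 and 0.379, 1.48 and 1.29 in IFN-γ non-phagocytic, Tconv- and Treg-phagocytic libraries. Of the 6 markers, 3 or 4 were detected in all 4 libraries of an IFN-γ group. The 6 dendritic cell markers summed to 9.82 to 24.5 with IFN-γ, 1.93 to 4.87 with IL-10 and 1.16 to 3.33 in M0, and the 5 B cell markers to 6.4 to 16.7, 1.2 to 5.64 and 1.44 to 2.34. Among the T cell markers Il7r went the other way, with group means of 145 scaled TPM in M0 and 103 to 129 with IFN-γ. Cd3e, by contrast, had 2.01 and 23.8 to 32. The dendritic cell sum was mostly Ccr7 (1.87 in M0, 12.9 to 19.1 with IFN-γ) and Clec9a. Flt3, Zbtb46, Xcr1 and Siglech had group means of at most 0.191. Summed T, stromal and B cell markers, Ccr7 and Clec9a therefore moved with the cytokine, and their part in the results was not tested. In bulk RNA, fewer cells of a type and less RNA per cell cannot be told apart.

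Over the 7 groups, Il1b had the widest range of group means, 7.73-fold, followed by Aim2 at 3.08-fold, Nlrp3 at 2.57-fold and Casp4 at 2.44-fold. Pycard spanned 1.94-fold, Il18 1.60-fold, Casp1 1.57-fold, Gsdmd 1.53-fold and Casp8 1.17-fold. In the level itself, Gsdmd and Pycard stood highest, at 112 to 201 and 76.8 to 183 scaled TPM, and Nlrp3, Il18 and Il1b lowest, at most 21.4 scaled TPM in any library.

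**Figure D1:**
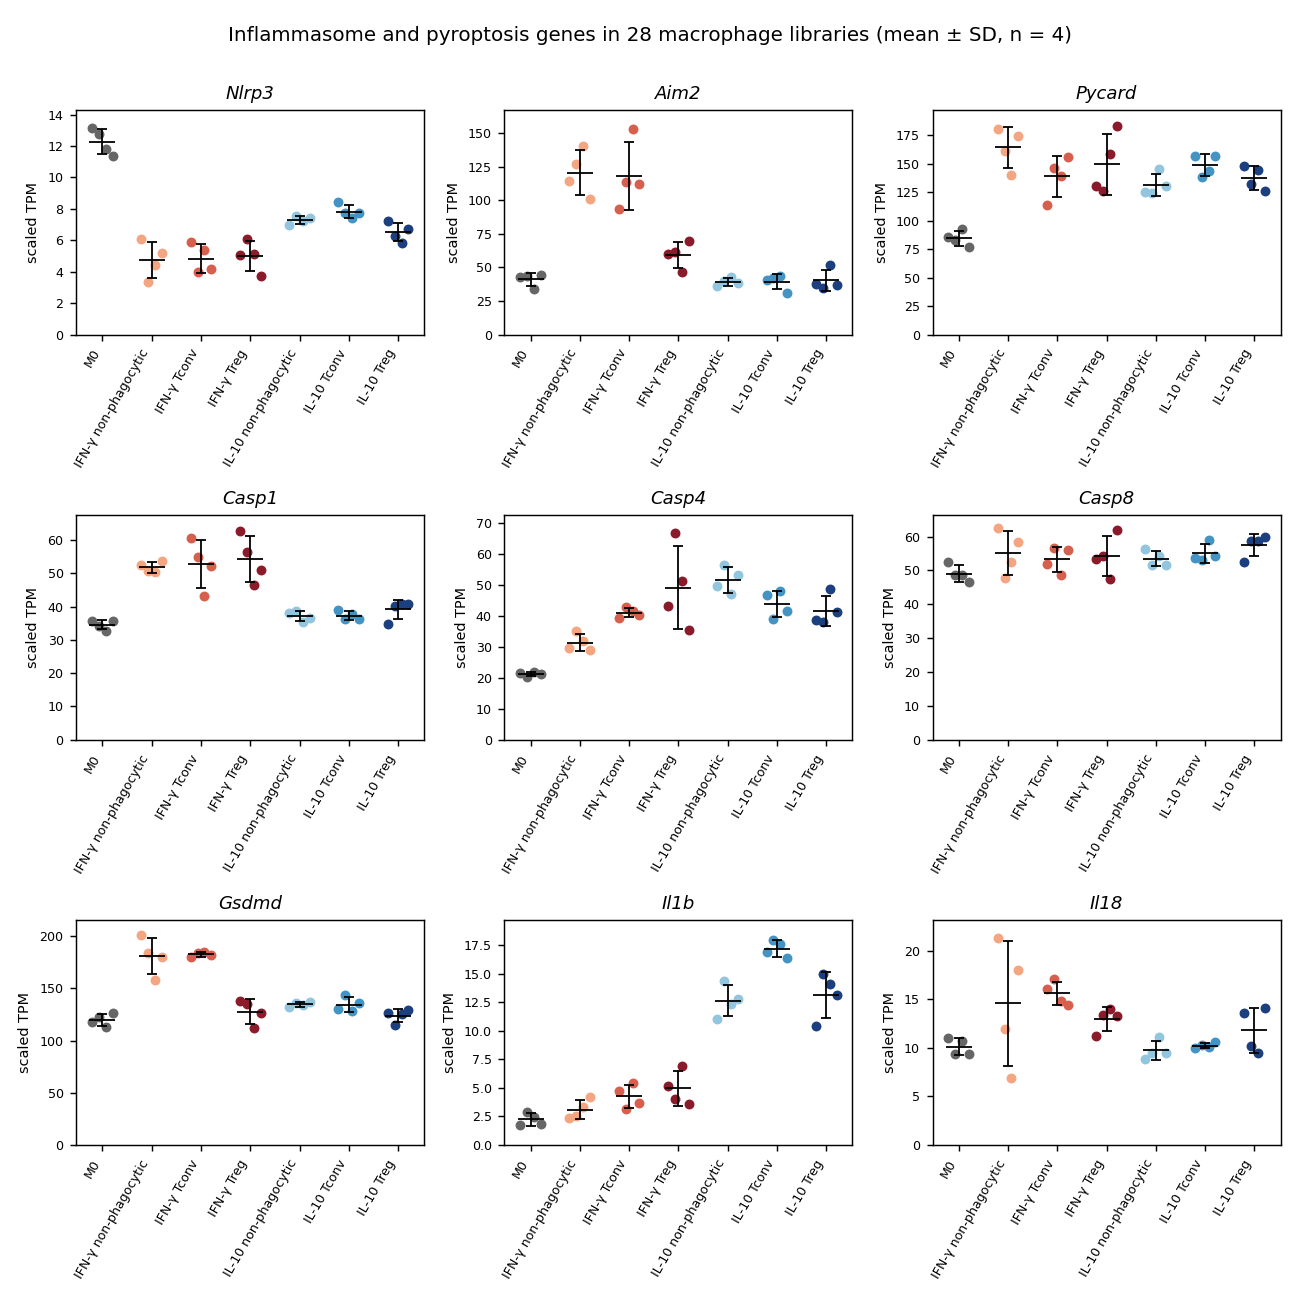
Scaled TPM (vertical axis, linear from 0) of the 9 genes in 4 libraries of each of 7 groups (horizontal axis); points are libraries, horizontal marks the mean and bars the SD. Aim2 and Gsdmd are high in 2 of the 3 IFN-γ groups and lower in the Treg-phagocytic one, Il1b is high in the 3 IL-10 groups, and Nlrp3 is highest in M0.

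With IFN-γ, non-phagocytic macrophages had more Aim2, Pycard, Casp1, Casp4 and Gsdmd RNA than M0 and less Nlrp3. These 6 of 9 members passed the test, 5 higher and 1 lower, where 53.1% of all tested genes did (limma, Benjamini-Hochberg over 13631 genes, adjusted p under 0.05; fold changes are on the log2(scaled TPM + 1) scale). With IL-10, 5 of 9 members passed against M0, where 26.6% of all genes did: Casp4, Il1b, Pycard and Gsdmd were higher and Nlrp3 was lower. The median log2 fold change of the 9 members was 0.54 for IFN-γ and 0.12 for IL-10, against -0.018 and 0.0039 over all genes. Both comparisons share the 4 M0 libraries.

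Nlrp3, the sensor of cell stress, had its highest level in M0, at 13.1, 12.8, 11.8 and 11.4 scaled TPM in replicates 1 to 4. The 4 non-phagocytic IFN-γ libraries, in the same order, had 6.06, 3.37, 4.43 and 5.21, and the 4 non-phagocytic IL-10 libraries had 6.94, 7.56, 7.23 and 7.41. The 3 groups did not overlap. The log2 fold change against M0 was -1.22 ± 0.15 (SE; adjusted p = 0.000201) for IFN-γ and -0.68 ± 0.061 (SE; adjusted p = 5.91e-05) for IL-10. In the order of group means, M0 at 12.3 ± 0.813 (SD, n = 4) was followed by the 3 IL-10 groups between 6.51 and 7.82 and the 3 IFN-γ groups between 4.77 and 4.98. No neighbouring groups within a cytokine passed a test of their difference.

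Aim2, the cytosolic DNA sensor, was higher than M0 with IFN-γ, and its IL-10 difference from M0 did not pass. M0 libraries had 42.5, 43.6, 34.2 and 44.5 scaled TPM, non-phagocytic IL-10 libraries 35.8, 40, 42.6 and 38, and non-phagocytic IFN-γ libraries 114, 127, 140.2 and 101. All 4 IFN-γ libraries lay above all 8 others. The log2 fold change against M0 was 1.52 ± 0.12 (SE; adjusted p = 9.32e-06) for IFN-γ, a 2.87-fold rise, and -0.069 ± 0.088 (SE; adjusted p = 0.619) for IL-10, with a 95% interval of -0.27 to 0.13.

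Pycard, whose protein ASC links sensor to caspase, was higher with both cytokines. Its level was 76.8 to 92.3 scaled TPM in M0, 140.3 to 180.3 in non-phagocytic IFN-γ libraries and 124 to 145 in non-phagocytic IL-10 libraries, and neither cytokine group overlapped M0. The rise over M0 on the log2 scale was 0.95 ± 0.087 (SE; adjusted p = 2.83e-05) with IFN-γ and 0.63 ± 0.066 (SE; adjusted p = 0.000166) with IL-10.

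The caspases took 3 different courses. Casp1, the enzyme that matures IL-1β, had 32.8 to 35.7 scaled TPM in M0 and 50.4 to 53.8 in non-phagocytic IFN-γ libraries, a log2 rise of 0.57 ± 0.053 (SE; adjusted p = 3.15e-05). In IL-10 libraries it was at 35.3 to 38.7, with a log2 difference from M0 of 0.10 ± 0.042 (SE; adjusted p = 0.116). Casp4, the lipopolysaccharide receptor of the non-canonical route, had 21.4, 20.1, 21.8 and 21.2 in M0, 29.6, 34.9, 31.9 and 28.8 in IFN-γ libraries and 49.6, 56.2, 47 and 53.2 in IL-10 libraries, all 3 apart. Casp4 was therefore higher than in M0 in both groups, by 0.54 ± 0.075 (SE) on the log2 scale with IFN-γ (limma adjusted p = 0.000351) and 1.24 ± 0.057 with IL-10 (limma adjusted p = 9.76e-07). Casp8 stayed between 46.6 and 62.5 scaled TPM in every library of the 7 groups, and its log2 differences from M0 were 0.16 ± 0.086 (SE; adjusted p = 0.148) for IFN-γ and 0.12 ± 0.045 (SE; adjusted p = 0.0804) for IL-10. Leaving out replicate 2 of the non-phagocytic IFN-γ group gave Casp8 a called rise of 0.23 (adjusted p = 0.031), and leaving out replicate 1 of M0 gave one of 0.15 with IL-10 (adjusted p = 0.0294).

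Gsdmd, the pore former, had 117, 122, 113 and 126 scaled TPM in M0. The non-phagocytic IFN-γ libraries had 201, 184, 158 and 180.2 and the IL-10 libraries 132, 136, 134 and 137. Each cytokine group lay above M0, and the IFN-γ group above the IL-10 group. The log2 rise was 0.59 ± 0.072 (SE; adjusted p = 0.00016) with IFN-γ and a smaller 0.17 ± 0.036 (SE; adjusted p = 0.00789) with IL-10. The IL-10 value did not pass in 1 model of all 28 libraries (adjusted p = 0.0686).

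Of the cytokine genes, Il1b rose with IL-10, and Il18 passed against M0 with neither cytokine. Il1b, which encodes the precursor of IL-1β, had 1.77, 2.90, 2.43 and 1.80 scaled TPM in M0 and 11, 14.4, 12.4 and 12.8 in non-phagocytic IL-10 libraries, with no overlap. This was a 4.26-fold rise, 2.09 ± 0.13 (SE; adjusted p = 6.18e-06). In non-phagocytic IFN-γ libraries it had 2.35, 2.55, 3.29 and 4.19, overlapping M0, with a log2 difference of 0.34 ± 0.19 (SE; adjusted p = 0.172) (95% interval -0.10 to 0.77). These low values rest on few reads, about 7 to 15 per library in that IFN-γ group and 24 to 54 in M0, against 111 to 214 in the IL-10 group. Il18 encodes the other caspase-1 substrate cytokine. Its level was 9.32 to 11 in M0, 8.88 to 11.2 with IL-10 and 21.4, 12, 6.88 and 18.1 with IFN-γ, where the replicates spread the most of any group and member (SD of 44.2% of the mean). The log2 difference of the IFN-γ group from M0 was 0.38 ± 0.29 (SE; adjusted p = 0.304). Without its replicate 3 the difference was 0.67 (adjusted p = 0.0163).

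**Figure D2:**
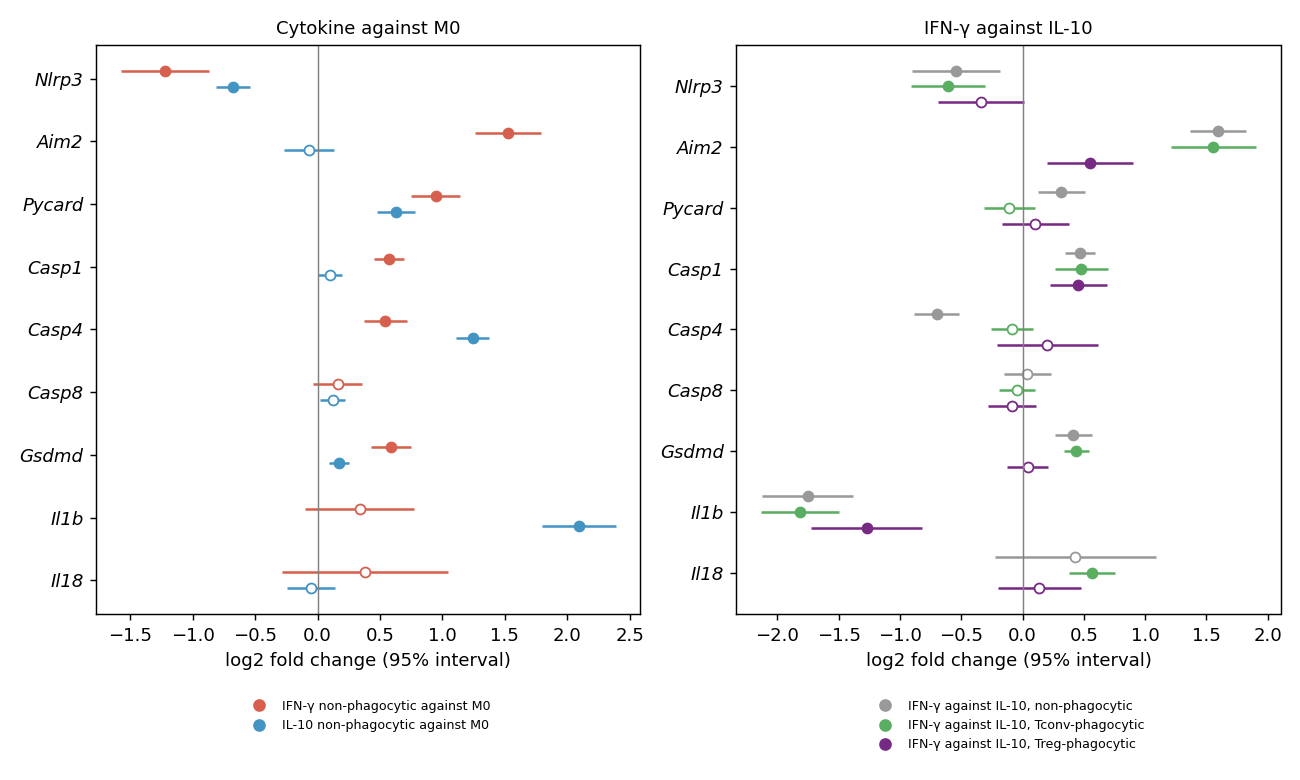
Log2 fold changes of the 9 genes (horizontal axis, log2 scale) with 95% intervals, for each cytokine against M0 on the left and IFN-γ against IL-10 in each kind of sorted macrophage on the right; filled points passed the test and open points did not. Casp4 and Il1b lie farther to the right with IL-10 than with IFN-γ, and Aim2 the reverse.

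IFN-γ and IL-10 were also compared directly within each sorted population. In non-phagocytic macrophages 7 of 9 members differed, 4 higher with IFN-γ (Aim2, Casp1, Gsdmd, Pycard) and 3 lower (Il1b, Casp4, Nlrp3), where 51.4% of all genes differed. In Tconv-phagocytic macrophages 6 members differed, where 52.5% of all genes did: Aim2, Casp1, Gsdmd and Il18 were higher with IFN-γ and Il1b and Nlrp3 lower. In Treg-phagocytic macrophages 3 differed, where 38.3% of all genes did: Casp1 and Aim2 were higher and Il1b was lower. Il1b, Casp1 and Aim2 thus passed in all 3 populations, with log2 differences of -1.75, -1.82 and -1.27 for Il1b and 0.47, 0.48 and 0.46 for Casp1, in the order non-phagocytic, Tconv-phagocytic, Treg-phagocytic.

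For Aim2 the cytokine difference was 1.59 ± 0.10 (SE; adjusted p = 2.13e-06) in non-phagocytic and 1.56 ± 0.15 (SE; adjusted p = 3.38e-05) in Tconv-phagocytic macrophages. In Treg-phagocytic macrophages it was 0.55 ± 0.15 (SE; adjusted p = 0.022) and the groups overlapped. That last call was lost without any 1 of 4 libraries: IFN-γ Treg-phagocytic BV421-2 (adjusted p = 0.0528), or IL-10 Treg-phagocytic Ax647-1 (0.0609), Ax647-2 (0.0658) or BV421-2 (0.0629). It was lost too with no filter on low values (0.073). For Gsdmd the 3 values were 0.42 ± 0.066, 0.44 ± 0.044 and 0.04 ± 0.072 (SE), and the last did not pass (limma adjusted p = 0.696). For Casp4 they were -0.70 ± 0.082, -0.088 ± 0.075 and 0.20 ± 0.18, and only the first passed (limma adjusted p = 0.000112). Nlrp3 in non-phagocytic macrophages, at -0.54 ± 0.16 (SE; adjusted p = 0.0177) was no longer called without IL-10 replicate 2 (adjusted p = 0.0506). The scaling bears on the smaller values, because without it the median log2 difference of all genes was -0.26 in non-phagocytic, -0.15 in Tconv-phagocytic and -0.26 in Treg-phagocytic macrophages, and -0.24 for IFN-γ against M0. On unscaled TPM the calls of Pycard (adjusted p = 0.739) and Gsdmd (0.0923) in non-phagocytic and of Casp1 (0.132) and Aim2 (0.117) in Treg-phagocytic macrophages were lost, and Casp8 in non-phagocytic macrophages went from 0.04 to a called -0.24. Unscaled values also gained calls, all lower with IFN-γ: Casp4 at -0.23 (adjusted p = 0.0297) and Casp8 at -0.19 (0.0338) in Tconv-phagocytic macrophages, which made 8 called members there, and Casp8 at -0.33 (0.00912) and Nlrp3 at -0.54 (0.0199) in Treg-phagocytic macrophages.

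Uptake of Treg cells under IFN-γ went with lower Aim2 and Gsdmd RNA. Of 9 members, 2 passed for Treg-phagocytic against non-phagocytic macrophages, both lower, where 8.0% of all genes passed. The same 2 genes were lower against Tconv-phagocytic macrophages, where 11.7% of all genes passed. These comparisons share the 4 Treg-phagocytic libraries. For Tconv-phagocytic against non-phagocytic macrophages under IFN-γ, 0 of 9 members passed and 1 of all 13631 genes (0.00734%). At an unadjusted p under 0.05 the numbers in limma were 1 member and 878 genes.

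In the 4 IFN-γ Treg-phagocytic libraries (BV421-1, BV421-2, Ax647-1, Ax647-2) Aim2 had 46.7, 70, 59.6 and 61.1 scaled TPM. The IFN-γ Tconv-phagocytic libraries had, in the same order, 93.3, 114, 153 and 112. All 4 Treg-phagocytic libraries lay below all 8 other IFN-γ libraries and above all 4 M0 libraries. The log2 difference was -0.97 ± 0.17 (SE; adjusted p = 0.0089) against Tconv-phagocytic and -1.01 ± 0.14 (SE; adjusted p = 0.00507) against non-phagocytic macrophages, or 0.510 and 0.495 times their level. With IL-10 the Treg-phagocytic libraries had 51.7, 37, 38 and 34.5 and the Tconv-phagocytic libraries 40.7, 41.8, 43.2 and 31, which overlapped, with a log2 difference of 0.033 ± 0.14 (SE; adjusted p = 0.955). The difference between the cytokines in this contrast was itself called, at -1.01 ± 0.23 (SE; adjusted p = 0.00753) against Tconv-phagocytic and -1.04 ± 0.19 (SE; adjusted p = 0.00209) against non-phagocytic macrophages.

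Gsdmd had 112, 127, 138 and 135 scaled TPM in IFN-γ Treg-phagocytic libraries and 179.8, 184, 185 and 182 in IFN-γ Tconv-phagocytic ones. The first group lay wholly below the second and below the non-phagocytic group. Its mean of 128 ± 11.6 (SD, n = 4) stood beside 119.6 ± 5.84 in M0. The log2 difference was -0.52 ± 0.068 (SE; adjusted p = 0.00326) against Tconv-phagocytic and -0.50 ± 0.09 (SE; adjusted p = 0.0151) against non-phagocytic macrophages. With IL-10 the Treg-phagocytic libraries had 125, 129.5, 126 and 115 and the Tconv-phagocytic ones 129.8, 143, 128 and 136, a log2 difference of -0.12 ± 0.048 (SE; adjusted p = 0.329). All IL-10 Treg-phagocytic libraries lay below the IL-10 non-phagocytic range of 131.7 to 137.2. That log2 difference of -0.12 did not pass (limma adjusted p = 0.0824). On unscaled TPM it was a called -0.20 (limma adjusted p = 0.00999), where the median of all genes was -0.071. The difference between cytokines was called, at -0.40 ± 0.086 (SE; adjusted p = 0.00559) against Tconv-phagocytic macrophages. Against non-phagocytic macrophages it was -0.38 ± 0.10 (SE; adjusted p = 0.0282) and this call was lost without any 1 of 6 libraries: IFN-γ non-phagocytic 1, IL-10 non-phagocytic 1 or 3, or IL-10 Treg-phagocytic Ax647-1, BV421-1 or BV421-2 (adjusted p 0.0513 to 0.0647). With no filter on low values it was lost as well (0.0592).

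Within each dye alone, with 2 libraries against 2, the IFN-γ Treg- against Tconv-phagocytic difference of Aim2 was -0.84 for BV421 (limma adjusted p = 0.314) and -1.11 for Ax647 (0.138), and that of Gsdmd was -0.61 (0.262) and -0.43 (0.111). Because the Treg- and Tconv-phagocytic libraries did not overlap for either gene, the sign within each dye was fixed in advance and tells nothing about the dye. Neither gene passed within a dye at this size. The macrophage markers summed to 23500 to 24600 scaled TPM in IFN-γ Treg-phagocytic libraries, against 17600 to 20700 in Tconv-phagocytic and 19000 to 20000 in non-phagocytic ones. Most of that sum was Lyz2, with group means of 20600, 16000 and 16600 in the same order. Adgre1 (660, 570 and 561), Csf1r (514, 447 and 449) and Cd68 (1650, 1400 and 1500) were also highest after Treg uptake. So were Itgam (103, 84.9 and 84.5) and Cd14 (239, 193 and 192). Mertk was lower after Treg uptake (17.2, 26.1 and 23.7), and Fcgr1 and Aif1 lay between the other groups. The T cell markers summed to 780 to 1100 against 708 to 895 and 642 to 1010. Of the dendritic cell markers, Clec9a was lower after Treg uptake (1.28, 5.08 and 6.23) and Ccr7 higher (19.1, 14.4 and 12.9). The part of macrophage, T cell or dendritic cell markers in the Aim2 and Gsdmd differences was not tested.

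**Figure D3:**
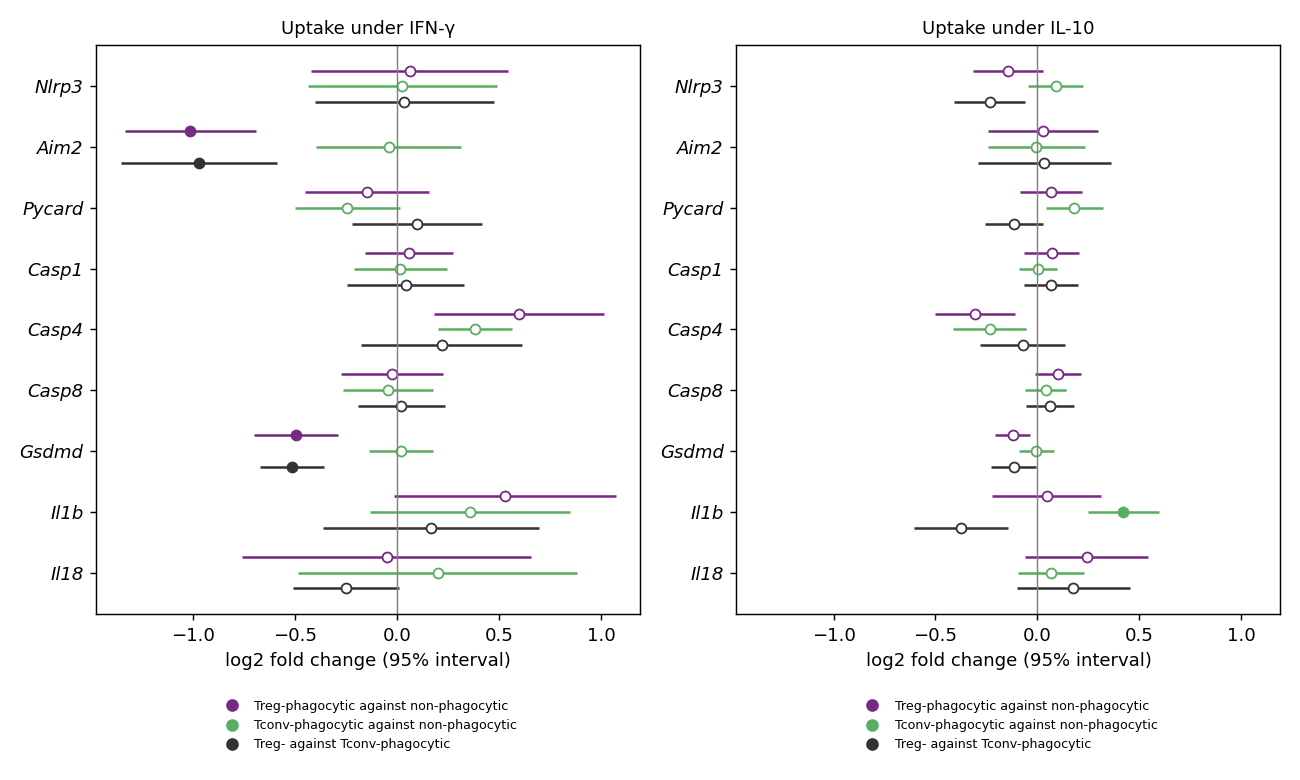
Log2 fold changes of the 9 genes (horizontal axis, log2 scale) with 95% intervals between sorted macrophages under IFN-γ on the left and IL-10 on the right; filled points passed the test and open points did not. Aim2 and Gsdmd under IFN-γ and Il1b under IL-10 carry the 5 filled points.

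Casp4 differed in its uptake contrast between cytokines, although no single uptake contrast passed. Under IFN-γ the Treg-phagocytic libraries had 51.2, 35.3, 43 and 66.8 scaled TPM and the Tconv-phagocytic ones 39.3, 42.8, 41.5 and 40.2, all above the non-phagocytic range of 28.8 to 34.9. The log2 differences from non-phagocytic macrophages were 0.60 ± 0.18 (SE; adjusted p = 0.0922) for Treg and 0.38 ± 0.079 (SE; adjusted p = 0.574) for Tconv uptake. Without IFN-γ Treg-phagocytic BV421-2 the first was 0.74 (adjusted p = 0.0395). Under IL-10 the signs were opposite, with 48.5, 41.2, 38.7 and 37.9 after Treg and 46.6, 38.9, 47.8 and 41.6 after Tconv uptake, against 47 to 56.2 in non-phagocytic libraries. These gave log2 differences of -0.31 ± 0.085 (SE; adjusted p = 0.0549) and -0.23 ± 0.078 (SE; adjusted p = 0.136). Without IL-10 Treg-phagocytic BV421-1 the first of these was -0.38 (adjusted p = 0.0163). The difference between the cytokines was 0.90 ± 0.20 (SE; adjusted p = 0.00994) for Treg uptake, 1 of 3 members called where 9.34% of all genes were, the others being Aim2 and Gsdmd. For Tconv uptake it was 0.61 ± 0.11 (SE; adjusted p = 0.0106) the 1 member called where 1.73% of all genes were. That call was lost in 1 model of all 28 libraries (adjusted p = 0.0628) and with variance weights per group (0.0961). For Treg against Tconv uptake, 2 of 9 members differed between the cytokines, Aim2 and Gsdmd, where 13.3% of all genes did.

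Under IL-10, uptake went with 1 called change among the members. Il1b was higher in Tconv-phagocytic macrophages, at 16.9, 18, 17.6 and 16.4 scaled TPM, all above the non-phagocytic range of 11 to 14.4. This was 1 of 9 members, where 6.14% of all genes passed, with a log2 difference of 0.42 ± 0.076 (SE; adjusted p = 0.0162). Without IL-10 non-phagocytic replicate 3 or without Tconv-phagocytic BV421-2 the adjusted p was 0.0507 or 0.0523, and in 1 model of all 28 libraries it was 0.396. The Treg-phagocytic libraries had 14.1, 13.1, 10.4 and 15, all below the Tconv-phagocytic ones, but the log2 difference of -0.37 ± 0.10 (SE; adjusted p = 0.141) did not pass. For Treg-phagocytic against non-phagocytic macrophages, 0 of 9 members passed and 2 had an unadjusted p under 0.05 (limma), where 11.4% of all genes passed. For Treg- against Tconv-phagocytic macrophages, 0 passed and 3 had an unadjusted p under 0.05, where 1.39% of all genes passed. In these IL-10 groups the T cell markers summed to 163 to 175 scaled TPM without uptake, 198 to 238 after Tconv and 285 to 311 after Treg uptake. The 6 stromal markers summed to 34.8 to 41 without uptake, 66.9 to 73 after Tconv and 12.2 to 15.3 after Treg uptake. Their part in the Il1b values was not tested.

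No uptake contrast within a cytokine passed for Nlrp3, Pycard, Casp1, Casp8 or Il18. Nlrp3 under IFN-γ had 3.37 to 6.06 scaled TPM over the 12 libraries of the 3 groups. Under IL-10 its Treg-phagocytic libraries, at 5.84, 6.69, 7.21 and 6.29, were all below the Tconv-phagocytic ones, at 8.43, 7.73, 7.40 and 7.72, with a log2 difference of -0.23 ± 0.077 (SE; adjusted p = 0.213). Pycard ranged from 114 to 183 under IFN-γ and from 124 to 157 under IL-10. Its Tconv- against non-phagocytic difference was -0.24 ± 0.11 under IFN-γ and 0.18 ± 0.061 under IL-10 (SE, log2 scale). Those values differed by -0.42 ± 0.13 (SE; adjusted p = 0.15), with a 95% interval of -0.70 to -0.14, which did not pass over all genes (unadjusted p = 0.00544, limma). Casp1 ranged from 43.4 to 62.9 and 34.7 to 40.9, so that no IL-10 library reached the lowest IFN-γ library. Il18 was 16.1, 17.1, 14.9 and 14.4 after Tconv and 14, 13.3, 11.2 and 13.4 after Treg uptake under IFN-γ, with no overlap and a log2 difference of -0.25 ± 0.11 (SE; adjusted p = 0.204). Against the widely spread non-phagocytic IFN-γ libraries the 95% interval for Treg uptake was -0.76 to 0.66, so changes of that size were not detectable. With IL-10 it was 10 to 10.6 and 9.52 to 14.1. For Casp8 the 95% intervals of the 6 uptake contrasts within a cytokine lay between -0.28 and 0.23 on the log2 scale.

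Around the 9 members, 60 related genes (of 61 listed, grouped by role) were matched to a gene ID and 52 were tested. The others, Nlrp1a, Naip1, Nlrp6, Nlrp12, Gsdmc, Casp12, Il1a and Il33, were below 1 TPM in too many libraries. In non-phagocytic IFN-γ macrophages 24 of the 52 were higher and 11 lower than in M0 (67.3%, with 53.1% over all genes). In non-phagocytic IL-10 macrophages 19 were higher and 7 lower (50.0%, with 26.6%). The median log2 fold change of the 52 was 0.31 and 0.065.

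The related list for endotoxin held Gbp2, Gbp3, Gbp5, Ifnar1, Tlr4 and Ticam1. Of these 6 genes, 4 were higher and 1 was lower with IFN-γ than in M0, where 53.1% of all genes passed. Gbp2, an interferon-induced GTPase that coats bacteria, had 5.70, 4.01, 4.23 and 3.36 scaled TPM in M0 and 309.9, 308, 239.5 and 298 in non-phagocytic IFN-γ libraries, a 54.8-fold rise. Its relative Gbp5 rose by 2.53 ± 0.18 (SE) on the log2 scale. Tlr4, the surface receptor of lipopolysaccharide, fell from 18.1 ± 1.35 to 5.87 ± 0.226 scaled TPM (SD, n = 4). Zbp1, a sensor of nucleic acid that drives necroptosis, rose by 2.30 ± 0.15, while Ripk1, a kinase of the same death machinery, changed by -1.06 ± 0.07 and Irak4, a kinase below Toll-like and IL-1 receptors, by -0.85 ± 0.16. With IL-10 the largest rise was that of Mefv, which encodes the sensor pyrin, from 6.0, 6.01, 6.31 and 5.08 in M0 to 21.3, 21.2, 24.3 and 22 in non-phagocytic macrophages, 3.39-fold. The necroptosis kinase gene Ripk3 rose by 1.36 ± 0.15 and Birc3, an inhibitor of apoptosis, by 0.95 ± 0.081. The channel gene Panx1 changed by -1.03 ± 0.12, the necroptosis executioner Mlkl by -0.63 ± 0.10 and the gasdermin gene Gsdme by -0.46 ± 0.081. All of these passed the test with no overlap between the groups.

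Between the cytokines, 36 of the 52 related genes differed in non-phagocytic (21 higher with IFN-γ, 15 lower), 35 in Tconv-phagocytic (19 and 16) and 32 in Treg-phagocytic macrophages (14 and 18). These were 69.2%, 67.3% and 61.5% of the 52, with 51.4%, 52.5% and 38.3% over all genes. Gbp2 and Zbp1 were among the 3 largest rises with IFN-γ, and Mefv, Tlr4 and Myd88, the adaptor of Toll-like and IL-1 receptors, were the 3 largest falls, in all 3 populations. The Gbp2 difference was 5.12 ± 0.086, 4.48 ± 0.13 and 2.54 ± 0.17 (SE) on the log2 scale in that order, and the Mefv difference -1.58 ± 0.12, -1.79 ± 0.094 and -1.86 ± 0.12. The third rise was Gbp5 in the first 2 populations, and in Treg-phagocytic macrophages Il18r1, a subunit of the IL-18 receptor, at 1.39 ± 0.22. Il18r1 was low there, with means of 3.13 ± 1.18 (SD) scaled TPM with IFN-γ and 0.526 with IL-10. The T cell markers were also higher with IFN-γ, and their part in the Il18r1 values was not tested.

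With Treg uptake under IFN-γ, 7 of 52 related genes differed from Tconv uptake (13.5%, with 11.7% over all genes), 6 of them lower, and 4 differed from no uptake, all lower (7.7%, with 8.0%). Those shares are near the background. Gbp2, Cflar and Nlrp1b had the largest falls in both. Gbp2 had 60.5, 88, 52.5 and 84.4 scaled TPM after Treg and 166, 259.6, 213 and 209 after Tconv uptake, a log2 difference of -1.57 ± 0.19 (SE; adjusted p = 0.0025). Cflar, whose protein c-FLIP restrains caspase-8, had 53.4, 56.1, 36.6 and 59.5 against 117, 167, 145 and 117, a difference of -1.40 ± 0.17 (SE; adjusted p = 0.00264). Nlrp1b, a further inflammasome sensor, had 5.29, 3.92, 3.78 and 4.47 against 8.68, 13.4, 9.31 and 10.8, a difference of -1.10 ± 0.18 (SE; adjusted p = 0.00736). No library overlapped in the 3 genes. Ninj1, which ruptures the membrane after pore formation, was the 1 related gene called higher after Treg than after Tconv uptake, by 0.23 ± 0.047 (SE; adjusted p = 0.0173). With IL-10, Ninj1 was higher after both kinds of uptake. Its libraries had 649 to 702 scaled TPM without uptake, 771 to 842 after Tconv and 796 to 843 after Treg uptake. After Tconv uptake 0 of the 52 differed from no uptake under IFN-γ (with 0.00734% over all genes), and 6 had an unadjusted p under 0.05 (limma). The differences between cytokines in the Treg against Tconv contrast were called for Gbp2, Cflar and Nlrp1b, at -1.94, -1.35 and -0.89.

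**Figure D4:**
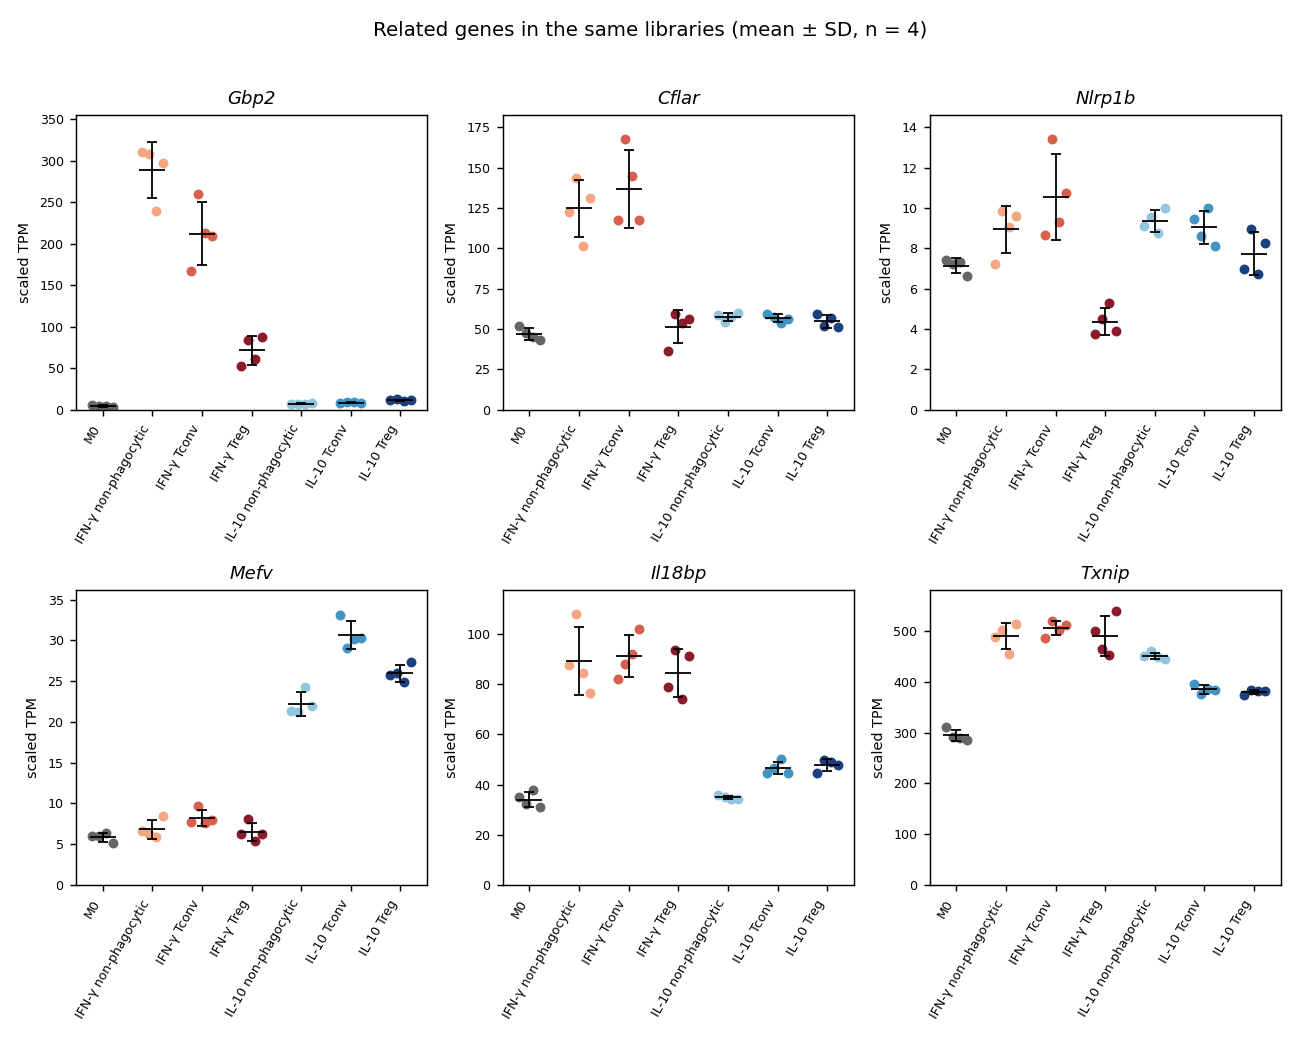
Scaled TPM (vertical axis, linear from 0) of 6 related genes in 4 libraries of each of 7 groups (horizontal axis); points are libraries, horizontal marks the mean and bars the SD. Gbp2, Cflar and Nlrp1b are lower in IFN-γ Treg-phagocytic libraries than in the other IFN-γ libraries, Mefv is high in the 3 IL-10 groups, and Txnip is lower in the 2 phagocytic IL-10 groups than in the non-phagocytic one.

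Under IL-10, 12 of 52 related genes differed after Treg uptake from no uptake (8 higher, 4 lower; 23.1%, with 11.4% over all genes), 7 after Tconv uptake (4 higher, 3 lower; 13.5%, with 6.14%) and 0 between both kinds of uptake (with 1.39%), where 10 had an unadjusted p under 0.05 (limma). Il18bp, which encodes the soluble decoy that binds IL-18, rose in both, from 34.9 ± 0.739 (SD, n = 4) scaled TPM without uptake to 47.8 ± 2.38 after Treg and 46.6 ± 2.50 after Tconv uptake. Txnip, a thioredoxin binder linked to NLRP3 activation, had 445 to 460.5 without uptake, 375 to 384 after Treg and 376 to 397 after Tconv uptake, with log2 differences of -0.24 ± 0.019 and -0.23 ± 0.022 (SE). Panx1 rose by 0.57 ± 0.089 and Gbp2 by 0.55 ± 0.071 after Treg uptake, and Mefv rose by 0.45 ± 0.057 after Tconv uptake. Nfkbiz changed by -0.31 ± 0.052 and Naip6 by -0.25 ± 0.067 after Treg uptake. After Tconv uptake Nfkbia changed by 0.28 ± 0.054, Nfkbiz by -0.17 ± 0.040 and Tlr4 by -0.15 ± 0.034.

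The genes whose log2 level followed each member most closely over the 28 libraries, among 9353 compared, were taken as the 3 with the highest Pearson r. The libraries fall into groups, so r mostly reflects group means, and r of the deviations from the group means is given beside it. For Aim2 they were Irgm1 (r = 0.959, 0.323 within groups), AU020206 and Hist2h2be. For Gsdmd they were Marf1 (0.940, 0.445), Sf1 and Nlrc5 (0.938, 0.554). For Nlrp3 they were Nab2 (0.940, 0.568), Actn4 and Zmiz1. For Il1b they were C1qa (0.962, 0.080), Tmem176a and Apoc2, for Casp1 Camta1 (0.946, 0.531), Atg12 and Oaz2, and for Pycard Cd74 (0.884, 0.579), Tspo and Ly86. For Casp4 they were Junb (0.853, -0.083), Zfp36 and Rap1b, for Il18 Mroh1 (0.791, 0.657), Casp8ap2 and Klhl12, and for Casp8, the member that varied least, Erp44 (0.698, 0.657), Eepd1 and Tmem268.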

How the data were processed

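RNA was measured in 28 libraries of poly(A) RNA, made with a strand-specific NEBNext Ultra II Directional kit per the labels' protocols. STAR, RSEM and mm10 are named in the submitters' processing notes, without versions or roles, and the annotation is not given in the sources used here. The authors deposited TPM per Ensembl gene ID with 2 decimals. The files hold no read counts. Relative depth was read from 14527 single-transcript genes of 500 to 2000 nt, where 89.2% to 92.8% of low values lay within 0.15 of a whole read after a length correction of 220 nt. The depth range was 9.0-fold, so low genes are less precise with IFN-γ. Of 378 pairs of libraries, 0 were identical.

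TPM was divided by a trimmed-mean scaling factor (30% of ratios and 5% of levels trimmed at each end), which was 0.856 to 0.957 for IFN-γ, 1.039 to 1.114 for IL-10 and 1.083 to 1.106 for M0. A gene was kept if 4 or more libraries had 1 TPM or more, which left 13631 genes. Log2(scaled TPM + 1) was tested with limma 3.58.1 (R 4.3.3; lmFit, eBayes with trend, two-sided), fitting only the groups compared, because the spread between replicates was larger with IFN-γ. There were 11 comparisons of 2 groups and 3 differences of differences, each adjusted by Benjamini-Hochberg over all tested genes. The procedure was tested on simulated data.

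The members and lists were chosen with earlier results of these data known. All 9 members are named. Of the related genes, up to 3 called rises and 3 called falls per comparison of 2 groups are named. Their groups do not overlap and have at least 2 TPM in the higher group. For the differences between cytokines in an uptake contrast, only some of the called related genes are named. For each member the 3 genes of highest Pearson r are named, without predicted genes. Marker lists of macrophages, T cells, Treg cells, neutrophils, dendritic cells, B cells and stromal cells were summed per library. Beside those in the report, neutrophil markers summed to 16.6 to 74.2 scaled TPM over all libraries. Alternatives were another scaling or none, pseudocounts of 0.1 and 5, other filters, 1 model of all libraries without and with variance weights, a replicate block, dye terms, and leaving out each library.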

Additional observations from a re-analysis of the deposited data

Results flagged for a closer look

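Casp1 in the IL-10 Treg-phagocytic library Ax647-1 was 34.7 scaled TPM, while the other 3 libraries of that group were at 40.2, 40.9 and 40.8. It was the 1 library to stand apart among the 63 sets of 4 libraries examined, and chance alone marks about 1 set in 20.

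The contrast of Treg- against Tconv-phagocytic macrophages differed between IFN-γ and IL-10 for Aim2, by -1.01 on the log2 scale (adjusted p = 0.00753), and for Gsdmd, by -0.40 (adjusted p = 0.00559). The contrast of Treg-phagocytic against non-phagocytic macrophages differed for Aim2 by -1.04 (adjusted p = 0.00209), for Casp4 by 0.90 (adjusted p = 0.00994) and for Gsdmd by -0.38 (adjusted p = 0.0282). The contrast of Tconv-phagocytic against non-phagocytic macrophages differed for Casp4 by 0.61 (adjusted p = 0.0106). Each p is from a difference of differences in limma over 16 libraries. The 3 tests share libraries, so the Aim2, Gsdmd and Casp4 values are not separate observations.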

How the results depend on the processing

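Read totals are unknown, and depth limits the members with few reads with IFN-γ, which were about 7 to 22 per library for Il1b. For other members the estimate depends on whether the shortest or the longest transcript is taken. It was 9 to 27 or 12 to 37 for Il18, 4 to 9 or 31 to 72 for Nlrp3, and 11 to 21 or 92 to 178 for Casp4. For Aim2 in IFN-γ Treg-phagocytic libraries it was 10 to 18 or 239 to 443. Replicate labels did not pair the libraries: deviations from group means correlated between -0.067 and 0.085 for same-labelled libraries, and 0 pairs exceeded 0.1. With a replicate block by file number, 1 member was called for IFN-γ Treg- against non-phagocytic macrophages, Aim2 being lost (adjusted p = 0.0572). With a replicate block by title label, 2 members were called for IFN-γ against IL-10 after Treg uptake (Aim2 lost, 0.0717) and 6 for IL-10 against M0 (Casp8 gained, 0.0438). The block moved no other count.

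Without scaling, Casp8 in non-phagocytic IFN-γ against IL-10 macrophages turned from 0.040 to -0.24 (adjusted p = 0.0306), and under IL-10 2 members were called for Treg and 2 for Tconv uptake against none. With 1 model of all 28 libraries, 4 members were called for IFN-γ Treg- against non-phagocytic macrophages, Casp4 (0.000563) and Il1b (0.0234) being added, 0 for IL-10 Tconv- against non-phagocytic and 0 for the difference between cytokines of that contrast. With variance weights these 2 counts were 2 and 0, and 1 member was called for IL-10 Treg- against non-phagocytic macrophages, as with a filter of 5 TPM. Within BV421 and within Ax647, 0 members were called for IFN-γ Treg- against Tconv-phagocytic macrophages, with 2 at an unadjusted p under 0.05 in each (limma, 2 libraries against 2).

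Leaving out each library in turn gave ranges of called members of 6 to 7 for IFN-γ against M0, 5 to 6 for IL-10 against M0, 6 to 8, 2 to 3 and 6 to 6 for IFN-γ against IL-10 without uptake and after Treg and Tconv uptake, and 2 to 3, 0 to 0 and 2 to 2 under IFN-γ for Treg against none, Tconv against none and Treg against Tconv uptake. Under IL-10 the same 3 ranges were 0 to 1, 0 to 1 and 0 to 0, and the differences between cytokines gave 2 to 3, 1 to 1 and 2 to 2. Of 2448 single-member values under the alternatives, 1 reversed, 29 lost a call and 21 gained one. The causes of these changes were not tested.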
